A study of Mus musculus with 6 samples.

Results

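The myocyte enhancer factor 2 (MEF2) family and the class IIa histone deacetylases were followed in MA-10 cells, a mouse Leydig tumour cell line. The members were chosen by gene symbol, as all probe sets of Mef2a, Mef2b, Mef2c, Mef2d, Hdac4, Hdac5, Hdac7 and Hdac9. These 8 genes, of 22093 genes with a name on the array, had 9 probe sets, with a second one for Mef2d. In the siRNA MEF2 group, 3 samples received small interfering RNA against MEF2A and MEF2D, and in the siRNA Ctrl group, 3 samples received a scrambled one. Total RNA was extracted with TRIZOL 48 h later and each sample was read on 1 Affymetrix whole-transcript array. The labels describe a single cell line with no other agent, grown in medium with horse serum in both groups. They do not say whether samples came from separate cultures, so the spread behind each p-value may be technical.

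MEF2 proteins are MADS-box transcription factors that bind AT-rich sites and are best known from muscle, neurons and, in the testis, Leydig and Sertoli cells. Class IIa histone deacetylases bind MEF2 through a stretch near their N terminus and hold it in a repressed state, together with corepressor complexes and HDAC3. When calcium-dependent and related kinases phosphorylate them, they are bound by 14-3-3 proteins, leave the nucleus by way of exportin 1, and MEF2 is set free. In muscle, MEF2 sites are known in promoters of some family members and of Hdac9.

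The promoters of the targeted genes and of the deacetylase genes that passed the test are given first, because the consensus for MEF2 occurs in some of them. RefSeq (GRCm38.p6) listed 14 start sites for the 8 genes, all of which matched by symbol, with 4 for Hdac7, 3 for Mef2c and 2 for Hdac9. The window searched ran from 250 bases before to 50 bases after each start. The MEF2 consensus, a 10-base site that reads the same on both strands, matched 2 of the 14 windows, those of Mef2a and Hdac5, and 1047 of 32851 windows of all genes (3.19%). Mef2a carried CTAAAAATAG at bases -2 to 8 around its start. Hdac5 carried CTATTTTTAG at bases -20 to -11, which is the same site read on the other strand. This exact site was found on either strand in 36 of all windows (0.110%). No start of Mef2b, Mef2c, Mef2d, Hdac4, Hdac7 or Hdac9 had a consensus match in its window. The downstream start of Hdac9 carried CTATTTTT, the first 8 letters of the Hdac5 site, at bases -116 to -109. These letters were searched after the sequences had been seen. On either strand they occur in 489 of all windows (1.49%), and they overlap the consensus in Mef2a and Hdac5. The 280 bases from 250 before to 30 after the start follow, 5′ to 3′ on the gene's strand, with the matching letters in capitals. Mef2d is shown as the targeted gene with no match.
Mef2a, chr7:67372829-67373108, minus strand: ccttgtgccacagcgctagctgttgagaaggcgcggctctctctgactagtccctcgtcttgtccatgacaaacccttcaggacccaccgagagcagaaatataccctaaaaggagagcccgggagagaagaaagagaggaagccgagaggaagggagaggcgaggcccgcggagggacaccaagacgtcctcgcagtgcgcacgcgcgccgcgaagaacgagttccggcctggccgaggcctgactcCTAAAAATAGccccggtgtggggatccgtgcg
Mef2d, chr3:88142122-88142401, plus strand: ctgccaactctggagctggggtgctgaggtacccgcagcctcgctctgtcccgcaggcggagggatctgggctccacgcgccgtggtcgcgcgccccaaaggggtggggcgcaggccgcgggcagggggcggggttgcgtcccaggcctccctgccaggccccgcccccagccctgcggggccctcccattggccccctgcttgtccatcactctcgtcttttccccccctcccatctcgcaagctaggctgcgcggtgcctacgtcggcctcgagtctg
Hdac5, chr11:102230143-102230422, minus strand: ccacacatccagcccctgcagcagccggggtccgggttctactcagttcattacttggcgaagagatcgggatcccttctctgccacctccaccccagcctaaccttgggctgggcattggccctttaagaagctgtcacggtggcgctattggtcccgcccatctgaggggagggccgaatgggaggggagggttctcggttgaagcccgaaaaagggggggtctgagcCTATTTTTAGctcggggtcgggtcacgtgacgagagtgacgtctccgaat
Hdac9, downstream start, chr12:34528860-34529139, minus strand: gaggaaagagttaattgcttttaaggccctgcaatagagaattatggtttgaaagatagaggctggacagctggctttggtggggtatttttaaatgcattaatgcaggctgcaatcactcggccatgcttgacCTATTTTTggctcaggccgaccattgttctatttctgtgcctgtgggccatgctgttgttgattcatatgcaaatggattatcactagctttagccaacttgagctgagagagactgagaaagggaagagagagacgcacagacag
A match is a stretch of letters and not a measured binding site, and the probe sets do not tell which start of a gene was used.

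Signal is given as log2 of the RMA value, in which 1 unit is a doubling of probe brightness. Differences are siRNA MEF2 minus siRNA Ctrl, tested with limma over all 22093 genes. Of the 8 members 4 passed at an adjusted p under 0.05, 3 lower and 1 higher, and the groups did not overlap for the same 4. Over all genes 20.8% passed, 11.7% lower and 9.06% higher, and the groups did not overlap for 40.8% (18.0% lower and 22.8% higher). Of all genes 2584 were lower and 2002 higher, and with array medians centred 3600 were lower and 825 higher. The total of 4586 called genes became 3078 with quantile and 3100 with cyclic loess scaling, so calls were lost there over all genes too. Leaving out the targeted pair, 2 of 6 members passed. The median difference was -0.052 over the 8 members and 0.039 over all genes. Arrays correlated across genes at 0.997 to 0.999 within a group and at 0.995 to 0.996 between groups. Of 6 measured Leydig markers, 4 (Cyp11a1, Cyp17a1, Lhcgr and Nr5a1) lay above the 95th percentile of the 5222 negative control probe sets (10.13), whereas Star and Hsd3b1 did not. None of 4 Sertoli, 3 germ cell, 4 macrophage and 5 muscle markers lay above it, and of 3 endothelial markers the cadherin gene Cdh5 did, at 11.84 in siRNA MEF2 samples and 12.26 in siRNA Ctrl samples (limma adjusted p = 0.00106). The muscle marker Ckm lay just below it, at 10.12 in siRNA MEF2 and 10.10 in siRNA Ctrl samples. Among the Leydig markers 2 were called lower (Star and Hsd3b1) and 3 higher (Cyp17a1, Lhcgr and Nr5a1), beside 20.8% of all genes called.

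**Figure D1:**
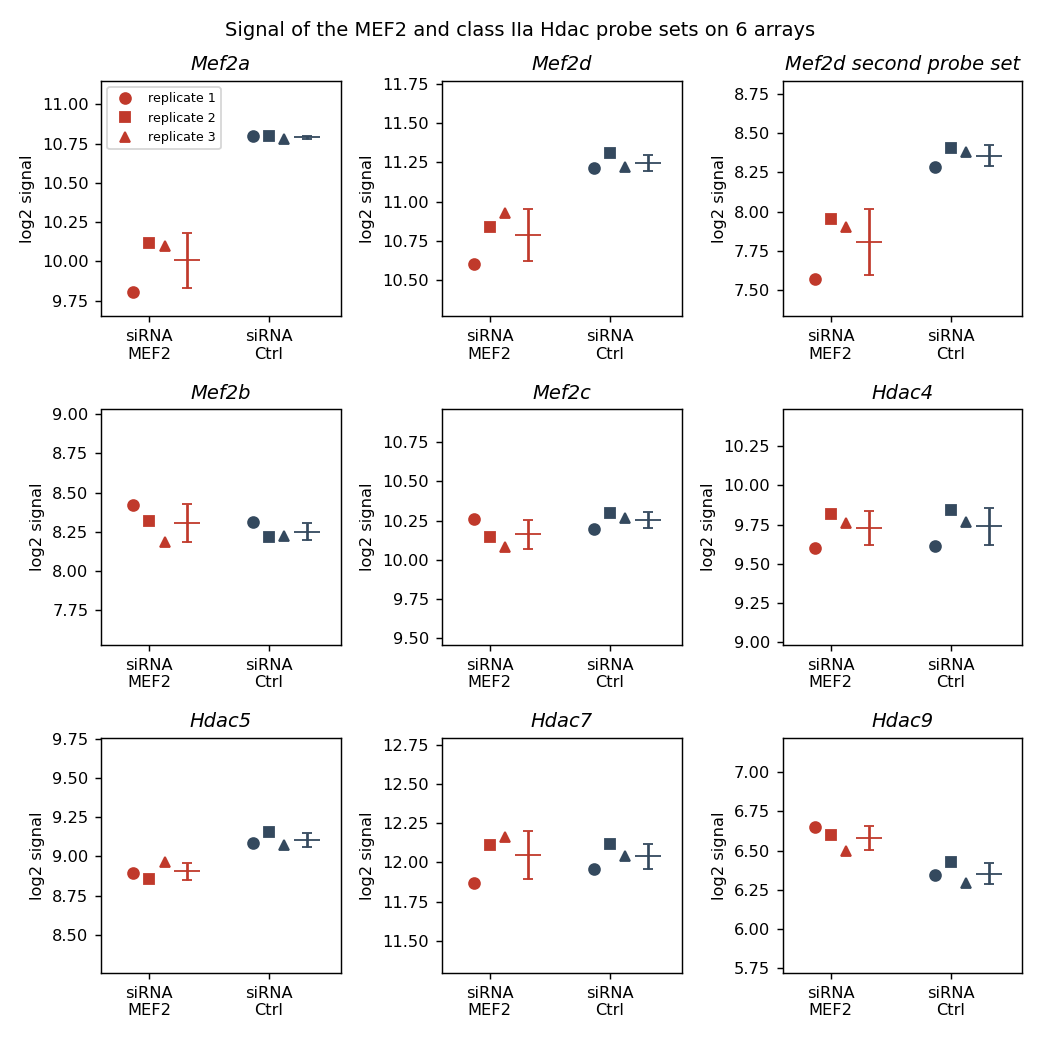
Log2 signal of the 9 probe sets in each of the 6 arrays, siRNA MEF2 (red) left of siRNA Ctrl (dark), with the marker shape giving the replicate number and the bar the mean ± SD (n = 3). Every panel spans the same log2 range. The red points of Mef2a, both Mef2d probe sets and Hdac5 lie below all dark ones, those of Hdac9 lie above, and the other panels overlap.

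Mef2a, the first of the targeted pair, had a log2 signal of 9.80, 10.12 and 10.10 in the siRNA MEF2 samples and of 10.80, 10.80 and 10.78 in the siRNA Ctrl samples. All siRNA MEF2 values lay well below the control values, which had an SD of 0.0092. Against the control mean, 50.4%, 62.8% and 61.8% of the signal was left on siRNA MEF2 replicates 1, 2 and 3. On average 58.0% was left, with a 95% interval of 51.6% to 65.4% (log2 difference -0.78, SE 0.079, limma adjusted p = 8.43e-05, n = 3 each). Array signal includes some background, so these shares need not equal shares of transcript, and in RNA pooled from many cells a partial fall in every cell and a deeper fall in some of them cannot be told apart. By size of difference Mef2a stood 48th from the lowest of all 22093 genes, counted over genes of all signal levels.

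Mef2d, the other targeted gene, also fell. Its main probe set (10493177) read 10.60, 10.84 and 10.92 in siRNA MEF2 samples and 11.22, 11.31 and 11.22 in siRNA Ctrl samples. On the 3 siRNA MEF2 arrays 64.0%, 75.2% and 79.9% of the control mean was left. The mean was 72.7% (95% interval 64.7% to 81.8%, log2 difference -0.46, SE 0.078, limma adjusted p = 0.00205, n = 3 each). The second probe set (10493189), annotated with an Ensembl transcript of the gene, read 7.57, 7.95 and 7.90 in siRNA MEF2 samples and 8.28, 8.41 and 8.38 in siRNA Ctrl samples. These groups were also apart, and replicate 1 was again the lowest. This probe set left 68.3% of the control mean (95% interval 59.5% to 78.5%) and fell by 0.55 on the log2 scale (SE 0.09, limma adjusted p = 0.00239 over 25523 named probe sets, of which 19.4% passed). Its signal lay above 67.3% of the negative controls, and that of the main probe set above 98.3%.

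Whether the targeted pair fell by unequal amounts was read from the difference of their log2 signals within each array, of which only the change between groups has a meaning. The log2 signal of Mef2a minus that of Mef2d was -0.80, -0.72 and -0.83 in siRNA MEF2 samples and -0.42, -0.51 and -0.44 in siRNA Ctrl samples, without overlap. The mean of this within-array quantity differed by -0.33 between the groups (-0.78 ± 0.06 and -0.46 ± 0.05, SD, n = 3 each). The two-sided exact permutation p was 0.1, the smallest that 3 against 3 arrays allow, so the difference in depth could not pass the threshold. With the second probe set of Mef2d it was -0.24, with the same exact permutation p of 0.1. Probe sets can respond unequally to the same change in transcript.

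Neither untargeted paralog, Mef2b or Mef2c, passed, and the groups overlapped for both. Mef2c, the family member best known from heart and skeletal muscle, read 10.26, 10.14 and 10.08 in siRNA MEF2 samples and 10.20, 10.30 and 10.27 in siRNA Ctrl samples. Its values overlapped, with 93.9% of the control mean left (95% interval 85.4% to 103%, limma adjusted p = 0.308). Mef2b, the most divergent member of the family, read 8.42, 8.32 and 8.18 in siRNA MEF2 samples and 8.31, 8.22 and 8.22 in siRNA Ctrl samples. These also overlapped, at 104% of the control mean (95% interval 93.9% to 115%, limma adjusted p = 0.563). Both intervals lie wholly above the 72.7% left for Mef2d. The signal of Mef2b lay above 71.4% of the negative controls and that of Mef2c above 95.4%.

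**Figure D2:**
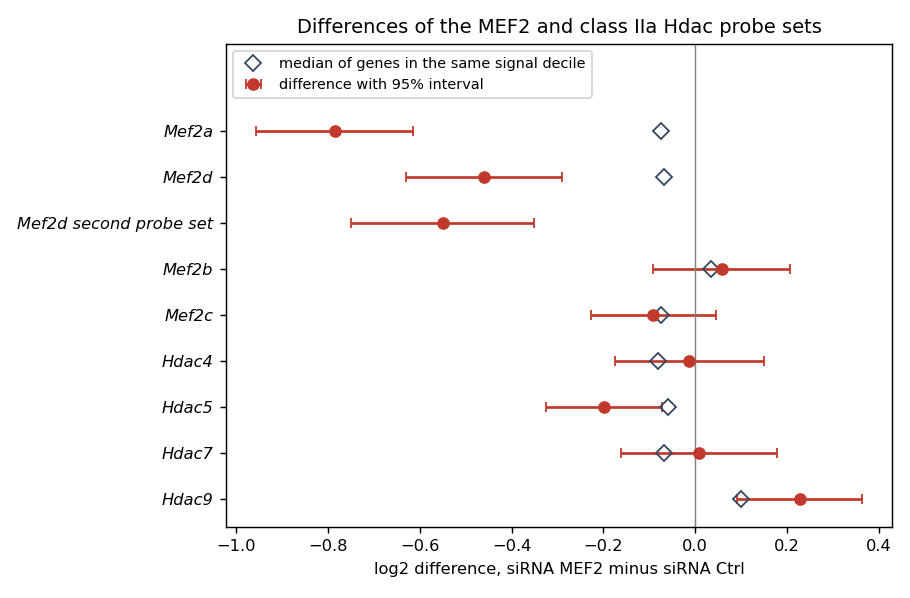
Log2 difference, siRNA MEF2 minus siRNA Ctrl, of the 9 probe sets with the 95% interval of limma (red), and the median difference of all genes in the same decile of signal (open diamonds, not drawn for the second Mef2d probe set). Mef2a at -0.78 and Mef2d at -0.46 stand apart from their decile medians of -0.075 and -0.067, while the decile medians lie inside the intervals of Mef2b, Mef2c, Hdac4, Hdac7 and Hdac9 and just outside that of Hdac5.

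Among the class IIa deacetylases, Hdac5 was lower and Hdac9 higher, while Hdac4 and Hdac7 did not pass. Hdac5, a calcium-responsive repressor of MEF2 and the deacetylase gene with the consensus near its start, read 8.90, 8.85 and 8.96 in siRNA MEF2 samples and 9.08, 9.16 and 9.07 in siRNA Ctrl samples. The highest siRNA MEF2 value lay below the lowest control value, by less than the difference of the means. On average 87.1% of the control signal was left (log2 difference -0.20, SE 0.058, 95% interval -0.33 to -0.074, limma adjusted p = 0.0314, n = 3 each). The signal of Hdac5 lay above 84.3% of the negative controls. In its decile of signal, the seventh of 10 from the dimmest, the median gene differed by -0.060 and 22.9% of genes were called lower. The scaling moved Hdac5 both ways. With array medians centred the difference was -0.25 (limma adjusted p = 0.0106), whereas it missed the threshold at -0.13 with quantile (limma adjusted p = 0.120) and at -0.16 with cyclic loess scaling (limma adjusted p = 0.0651). Leaving out a single array ended the call for 5 of the 6, at a limma adjusted p between 0.0574 and 0.109, and the call held only when siRNA MEF2 replicate 3 was the one left out.

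Hdac9, which also gives rise to a short form without the catalytic domain known as MITR, read 6.65, 6.60 and 6.50 in siRNA MEF2 samples and 6.34, 6.43 and 6.29 in siRNA Ctrl samples. All siRNA MEF2 values were above all control values. Its mean difference was 0.23 (SE 0.06, 95% interval 0.09 to 0.36, limma adjusted p = 0.0248, n = 3 each). The signal was dim: it exceeded only 32.3% of the negative controls, whose medians were 7.16, 7.40 and 7.53 on the siRNA MEF2 arrays and 7.28, 7.35 and 7.34 on the siRNA Ctrl arrays. A log2 difference between signals this dim is a difference in probe brightness and is not read as a fold of transcript. Genes of the same decile of signal, the third from the dimmest, differed by a median of 0.099, and 11.4% of them were called higher. Other scalings ended this call as well, with a limma adjusted p of 0.0543 with centred medians, 0.160 with quantile and 0.174 with cyclic loess scaling. Leaving out siRNA MEF2 replicate 1 or 2, or siRNA Ctrl replicate 1 or 3, also ended it, with limma adjusted p of 0.0644, 0.0776, 0.0676 and 0.0985 in that order. How far the shift of dim genes enters this difference was not tested.

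Hdac4, which restrains MEF2 in cartilage and muscle, read 9.60, 9.81 and 9.76 in siRNA MEF2 samples and 9.61, 9.84 and 9.77 in siRNA Ctrl samples. The ranges nearly coincided, and in both groups the array numbered 1 was the lowest and the array numbered 2 the highest. Its mean was 99.1% of the control signal (95% interval 88.5% to 111%, limma adjusted p = 0.916). Hdac7, which represses MEF2 in endothelium and thymus, read 11.87, 12.11 and 12.16 in siRNA MEF2 samples and 11.96, 12.12 and 12.04 in siRNA Ctrl samples. The array numbered 1 was again the lowest of each group. Hdac7 was at 101% of the control signal (95% interval 89.4% to 113%, limma adjusted p = 0.947). The sign of both small differences turned with the scaling. Hdac4 differed by -0.013 as deposited, by 0.085 after quantile normalization and by 0.059 after cyclic loess, and Hdac7 by 0.0085 as deposited and by -0.042 after median centring. A change as large as that of Mef2d lies outside the 95% interval of both genes. The signal of Hdac4 lay above 92.3% of the negative controls and that of Hdac7 above 99.2%.

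**Figure D3:**
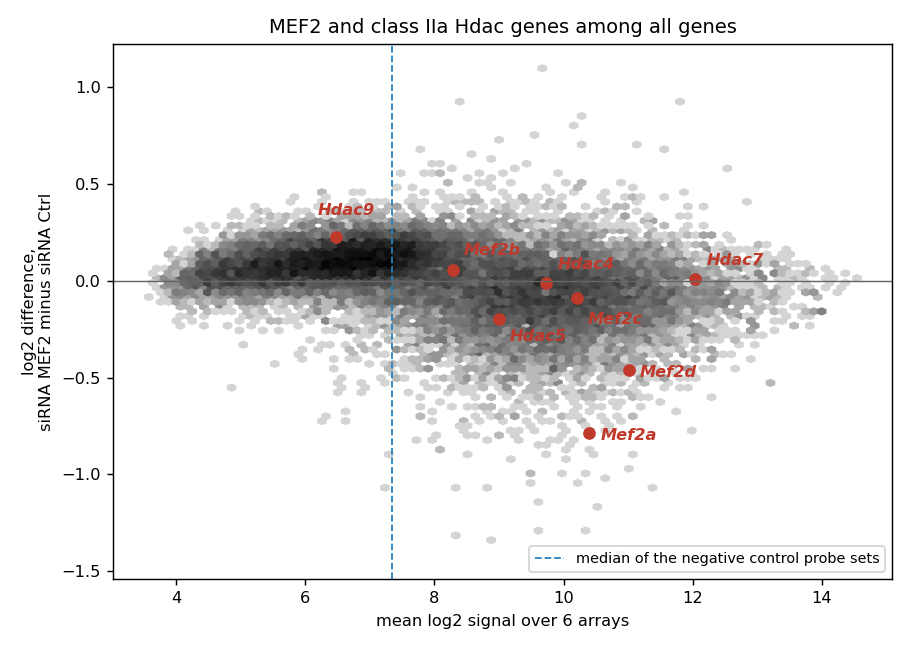
Log2 difference, siRNA MEF2 minus siRNA Ctrl, against the mean log2 signal over 6 arrays for all 22093 genes (grey shading, number of genes on a log scale), with the 8 members in red and the median of the negative control probe sets (7.34) as a dashed line. Hdac9 lies left of that line among genes mostly above 0, and Mef2a and Mef2d lie below the bulk of genes of their brightness.

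The genes that act with class IIa deacetylases were read from lists of 50 genes, all of which were measured. Of these 11 fell and 2 rose (26.0%, beside 20.8% of all genes), and their median difference was -0.025, beside 0.039 over all genes. Most of the 50 genes were brighter than Hdac4, which lay in signal decile 8 of 10. In deciles 8, 9 and 10 the median gene differed by -0.082, -0.075 and -0.067. There 26.1%, 25.0% and 22.7% of genes were called lower, and 4.66%, 4.53% and 4.30% higher. Of the 7 histone deacetylases of the other classes none passed in limma, 2 had an unadjusted p under 0.05, and 2 were called lower after median centring. Hdac1 and Hdac2, the catalytic pair of several nuclear repressor complexes, differed by -0.14 (limma adjusted p = 0.123) and -0.13 (limma adjusted p = 0.116). For both, all siRNA MEF2 values lay below all control values, as for 18.0% of all genes. Hdac3, the deacetylase that supplies activity to the class IIa complexes, read 11.32, 11.21 and 11.21 in siRNA MEF2 samples and 11.34, 11.29 and 11.30 in siRNA Ctrl samples (limma adjusted p = 0.490).

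Of 12 corepressor genes 3 fell and 1 rose, beside 11.7% lower and 9.06% higher over all genes. Bcl6, a zinc-finger repressor that recruits class IIa deacetylases, read 9.60, 9.54 and 9.55 in siRNA MEF2 samples and 9.89, 9.95 and 9.87 in siRNA Ctrl samples. The groups were well apart (log2 difference -0.34, SE 0.055, limma adjusted p = 0.00164). Tbl1x, a subunit of HDAC3 corepressor complexes, fell by 0.24 (limma adjusted p = 0.0249) and Cbx5, the heterochromatin protein HP1-alpha gene, by 0.19 (limma adjusted p = 0.0406). Cabin1, a calcineurin-binding repressor of MEF2, rose by 0.18 (limma adjusted p = 0.0488). Bcl6 kept its call under all 16 alternatives. With 1 array left out, Cbx5 lost its call whichever array it was (limma adjusted p 0.0552 to 0.147), Cabin1 for every array but siRNA MEF2 replicate 1 (0.0927 to 0.140), and Tbl1x without siRNA MEF2 replicate 3 or siRNA Ctrl replicate 2 or 3 (0.0662 to 0.0921). Quantile and cyclic loess scaling, in that order, also ended the calls of Tbl1x (limma adjusted p 0.108 and 0.115) and Cbx5 (0.146 and 0.185). Cabin1 lost its call with array medians centred (limma adjusted p = 0.152) and over every named probe set (0.0510). The corepressors called lower numbered 1 under quantile and cyclic loess scaling and 4 with array medians centred.

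Of 7 genes for 14-3-3 proteins 4 fell, beside 11.7% of all genes, and the median difference of the list was -0.20, beside 0.039 over all genes. Ywhab, Ywhae, Ywhag, Ywhah and Ywhaz were brighter than Mef2d, which lay in the brightest decile of signal. In that decile the median gene differed by -0.067 and 22.7% of genes were called lower. The part of signal in the share of this list was not tested. Ywhah, the eta isoform, read 12.19, 12.15 and 12.05 in siRNA MEF2 samples and 12.51, 12.58 and 12.47 in siRNA Ctrl samples. It fell by 0.39 on the log2 scale, to 76.2% of the control mean (SE 0.061, limma adjusted p = 0.00114). These values are of its brightest probe set, and as the mean of its probe sets Ywhah differed by -0.34 (limma adjusted p = 0.00194). Sfn, the sigma isoform, fell by 0.36, although 8.79 on 1 siRNA MEF2 array was above the lowest control value of 8.77 (limma adjusted p = 0.0246). Ywhaq, the theta isoform, fell by 0.24 (limma adjusted p = 0.0312) and Ywhab, the beta isoform, by 0.20 (limma adjusted p = 0.0424). Ywhah kept its call under all 16 alternatives, while 1 to 5 genes of the list were called lower over them. With 1 array left out, Sfn lost its call without siRNA MEF2 replicate 3 or siRNA Ctrl replicate 2 or 3 (limma adjusted p 0.0726 to 0.0966), Ywhaq without siRNA MEF2 or siRNA Ctrl replicate 2 or 3 (0.0558 to 0.121), and Ywhab for every array but siRNA MEF2 replicate 1 (up to 0.13). Under quantile and cyclic loess scaling, in that order, Ywhaq (limma adjusted p 0.0932 and 0.0552) and Ywhab (0.181 and 0.198) lost their calls too. Sfn lost its call under quantile scaling (limma adjusted p = 0.0632) and as the mean of its probe sets (0.0615).

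Of 19 kinase genes 3 fell and 1 rose, a share near the 20.8% of all genes that passed. The calcium-dependent kinases of the CaMK2 family, Camk4, the protein kinase D genes and the salt-inducible kinases did not pass. Prkaa2, a catalytic subunit of the AMP-activated kinase, read 9.96, 10.17 and 9.96 in siRNA MEF2 samples and 10.58, 10.73 and 10.59 in siRNA Ctrl samples. It had the furthest fall of the 50 genes, to 65.7% of the control mean (log2 difference -0.61, SE 0.071, limma adjusted p = 0.000241). Prkaa1, the other catalytic subunit, fell by 0.22 (limma adjusted p = 0.0162). Camk1, calcium/calmodulin-dependent kinase I, read 9.54, 9.28 and 9.31 in siRNA MEF2 samples and 9.71, 9.77 and 9.78 in siRNA Ctrl samples. It fell by 0.38, with no overlap (SE 0.072, limma adjusted p = 0.00384). Camk1g rose by 0.26 at a signal brighter than only 29.2% of the negative controls (limma adjusted p = 0.0160). Xpo1, the nuclear export receptor for phosphorylated class IIa deacetylases, fell by 0.23 (limma adjusted p = 0.0141). It was the only call among 5 phosphatase and export genes, beside 20.8% of all genes. Under quantile and under cyclic loess scaling, 0 genes of this list were called lower and 2 were called higher. Prkaa2 and Camk1 kept their calls under all 16 alternatives. With 1 array left out, Prkaa1 lost its call without siRNA Ctrl replicate 2 or 3 (limma adjusted p 0.0514 to 0.0627), Camk1g without siRNA MEF2 or siRNA Ctrl replicate 2 (0.0603 to 0.0702), and Xpo1 without siRNA Ctrl replicate 3 (0.0667). Quantile and cyclic loess scaling, in that order, ended the calls of Prkaa1 (limma adjusted p 0.0867 and 0.0926), Camk1g (0.102 and 0.117) and Xpo1 (0.0835 and 0.0805).

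**Figure D4:**
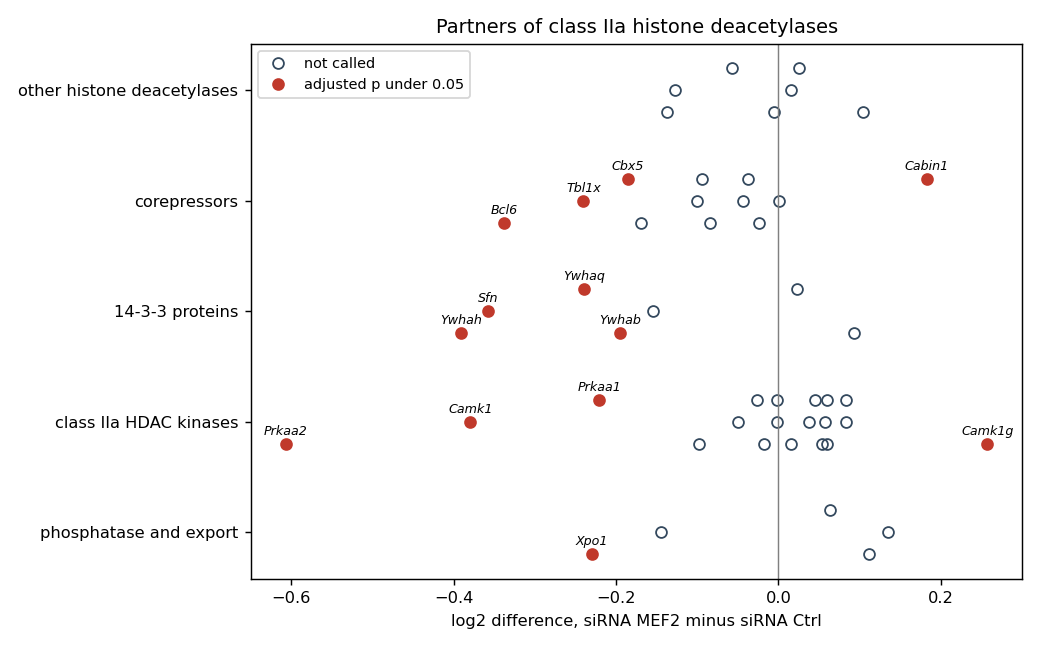
Log2 difference, siRNA MEF2 minus siRNA Ctrl, of the 50 partner genes in 5 lists, with genes at a limma adjusted p under 0.05 filled and named. Points are staggered vertically for legibility only. Filled points lie below 0 except Cabin1 at 0.18 and Camk1g at 0.26, and the list of other histone deacetylases has none.

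Among 10390 other genes with a mean of at least 8 in both groups, the array-by-array profile nearest to that of Mef2a was that of Atpaf1, an assembly factor gene of the mitochondrial ATP synthase. Nearness was the root mean square over 6 arrays of the gap between log2 deviations from each gene's control mean, and it was 0.081 for Atpaf1. Lgals3, Purb, Txnrd1 and Neurl1b followed at 0.093 to 0.11. On siRNA MEF2 replicates 1 to 3 Mef2a deviated from its control mean by -0.99, -0.67 and -0.69, and Atpaf1 by -0.90, -0.76 and -0.84. For Mef2d the nearest were Arrb1, a beta-arrestin gene, at 0.042, and then Aldh1l1, Vegfd, Ralgps2 and Lmo7 at 0.046 to 0.053. Arrb1 deviated by -0.65, -0.44 and -0.40 on the siRNA MEF2 arrays, and Mef2d itself by -0.64, -0.41 and -0.32. Mef2a and Mef2d lay 0.23 apart on this measure, which takes in the size of a fall as well as its pattern over arrays. At that same distance Mef2d ranked 198th from Mef2a and Mef2a 2462nd from Mef2d.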

How the data were processed

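Per the file headers, what the authors deposited are RMA signals at gene level on the log2 scale, with a column for each of 6 arrays. RMA and Partek are named in the submitters' processing notes, without versions. Array design and annotation release: not given in the sources used here. The annotated table and the series matrix held the same values for 35557 probe sets. Probe sets were named through the deposited accession and symbol with a RefSeq gene table (GRCm38.p6), used for names only, which gave 25523 named probe sets and 22093 genes. The brightest probe set stood for a gene, and no filter was applied. The number of arrays limits the precision.

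Groups came from the sample titles. Differences were tested two-sided with limma 3.58.1 (lmFit, then eBayes; R 4.3.3), without covariates and with Benjamini-Hochberg adjustment over all genes, after the same code had been tested on simulated data. The members, lists and tests were chosen with earlier results of these data known. Named genes are the members, up to 4 called genes of each partner list with the smallest p, the 5 nearest profiles to Mef2a and to Mef2d among genes with both group means of at least 8, and cell markers. The Leydig marker Insl3 is not analysed here. Promoter sequences come from RefSeq (GRCm38.p6). Alternatives changed scaling, filter, probe set choice, variance model, weights, block and arrays.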

Additional observations from a re-analysis of the deposited data

How the results depend on the processing

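Each difference of a member was recomputed under up to 16 alternatives. Mef2a (log2 differences from -0.84 to -0.68) and Mef2d (from -0.53 to -0.37) kept direction and call in all 16, and Mef2c kept its direction without a call. Hdac5 lost its call in 7 of 16 alternatives, among them quantile normalization (-0.13) and cyclic loess (-0.16), was called at -0.25 after median centring, and ranged from -0.23 to -0.17 without 1 array. Hdac9 lost its call in 7 of 15, at 0.18 after median centring, 0.13 after quantile normalization and 0.13 after cyclic loess, and ranged from 0.19 to 0.27 without 1 array. Above the median signal it was not tested. Signs of uncalled differences turned for Mef2b without siRNA MEF2 replicate 1 (-0.00075, range to 0.12 over left-out arrays), for Hdac4 after quantile normalization (0.085), cyclic loess (0.059) and array weights (0.012; from -0.077 to 0.049 over left-out arrays), and for Hdac7 after median centring (-0.042; from -0.049 to 0.097 over left-out arrays). Members called lower numbered 2 or 3. The 1 member called higher became 0 after median centring, quantile normalization, cyclic loess and above the median signal, and 0 or 1 without 1 array. Of the 50 partner genes 11 were called lower as deposited, and 4 to 16 over the alternatives. They numbered 4 after quantile normalization, 5 after cyclic loess and 16 after median centring. With array weights and with a variance trend 13 were called lower. Above the median signal it was also 13, but there dim partner genes such as Camk1g were not tested. Without 1 array it was 4 to 11 (5, 4 and 6 without siRNA Ctrl replicates 2 and 3 and siRNA MEF2 replicate 3). Those called higher, 2 as deposited, numbered 3 after quantile normalization and after cyclic loess, 1 after median centring, above the median signal and over every named probe set, and 0 to 2 without 1 array. The change between groups in the within-array difference of Mef2a and Mef2d ranged from -0.36 to -0.28 over 12 alternatives. Its exact permutation p was 0.25 with the replicate block and 0.1 otherwise. The causes were not tested. Over all genes 2584 were lower and 2002 higher as deposited, and 3600 and 825 after median centring. Quantile normalization left 1702 lower and 1376 higher, and cyclic loess 1926 and 1174, so calls over all genes also became fewer there. With array weights the counts were 3068 and 2897, and with a variance trend 2755 and 1986. Above the median signal 2779 of 11046 tested genes were lower and 961 higher. The total of 4586 was 2522 without siRNA Ctrl replicate 2, 2655 without siRNA Ctrl replicate 3 and 2483 without siRNA MEF2 replicate 2. Same-numbered arrays deviated together only weakly (r across genes 0.113, 0.076 and 0.096), each correlating best with its own number, which is a hint from the data and no design. With the replicate number as a block, 5319 genes were called and no member's call changed (Hdac5 -0.20, Hdac9 0.23, Mef2a -0.78, Mef2d -0.46).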

Other observations

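The MEF2 consensus was counted in the promoter windows of measured genes, a count chosen after the member promoters had been seen and given without a test. Not all of the 22093 named genes entered this count. Of 494 genes with a match 46 were called lower and 35 higher (9.31% and 7.09%), and of 15759 genes without one 2021 were called lower and 1374 higher (12.8% and 8.72%). The median log2 difference was 0.049 with a match and 0.033 without one. Genes with a match were dimmer (median log2 signal 6.58, against 8.10 without a match) and had windows of lower GC content (44.7%, against 57.7%); the part of signal and base composition in these shares was not tested.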
